A study of Homo sapiens with 12 samples.

Results

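The genes described here are 10 regulators of the passage from G1 into S phase of the cell cycle: the D-type cyclins CCND1, CCND2 and CCND3, their kinases CDK4 and CDK6, the retinoblastoma gene RB1, the kinase inhibitors CDKN1A and CDKN1B, and CCNE1 and E2F1. They are 10 of the 23615 genes in the deposited tables, matched by symbol, and all 10 passed the filter on low counts that left 16005 genes for testing. The set was chosen by measured values, because CCND1 was lower and RB1 higher in a HuR knockdown line, so differences between the lines are given for its members as a description, and no p-value of that comparison is used as evidence about them. RNA was sequenced from 2 lines of HEK293T, a human embryonic kidney cell line, named shHuR for a hairpin that targets HuR and shControl for a control hairpin. ELAVL1 is the gene of HuR, which binds mRNAs. Cells of both lines were untreated, or were exposed for 18 h to 25 µM HNE(alkyne), an electrophile derived from lipids and tagged with an alkyne, or to 225 µM H2O2. Each of the 6 groups held 2 biological replicates, for 12 libraries in all. Every group, shControl included, had been transduced with lentivirus and selected with puromycin, and each line carries 1 hairpin. A lower level of HuR and any other property of the hairpin or of the selected population thus cannot be told apart.

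D-type cyclins bind CDK4 and CDK6, and the complexes phosphorylate the retinoblastoma protein, which then releases the E2F transcription factors that drive S-phase genes. Cyclin E, encoded by CCNE1, acts with CDK2 in the following step, and p21 (CDKN1A) and p27 (CDKN1B) inhibit cyclin-CDK complexes. HEK293T cells carry adenovirus E1A and SV40 large T antigen, both known to bind the retinoblastoma protein. HuR binds AU-rich and U-rich elements in mRNAs, and transcripts of cyclins and of CDK inhibitors are among those reported as its targets. As the RNA came from bulk cultures, fewer cells in a given phase and less RNA per cell cannot be told apart.

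The hairpin and its target are shown first, because the hairpin gives the shHuR line its name. The strand that matches the mRNA occurs in ELAVL1 alone among annotated transcripts, in exon 5 of 6 (chr19:7967669-7967689 in GRCh38). In the complementary strand, capitals mark the seed, bases 2 to 8 from the 5′ end.
shHuR hairpin, strand matching the mRNA: cccatcacagtgaagtttgca
shHuR hairpin, complementary strand: tGCAAACTtcactgtgatggg
The 7-base match to that seed, AGTTTGC, occurred in the 3′ UTR of 0 of the 10 genes and in 11.3% of 13439 genes with an annotated 3′ UTR. ELAVL1 itself had 86 to 99.4 CPM (counts scaled to library size) over the 6 shControl libraries (median 92.5) and 69.3 to 74.5 CPM over the 6 shHuR libraries (median 70.5). Its mean was 23.4% lower in shHuR, and the lines did not overlap. Of the genes tested, 16.1% had a larger absolute log2 fold change than ELAVL1.

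Stretches of at most 30 bases around AUUUA pentamers, the core of AU-rich elements, are given for the 4 genes with the largest line differences. Each was taken at the first place in the 3′ UTR with the most pentamers within 30 bases. They hold 2 of the 7 pentamers of CCND1, 2 of 12 of RB1, 2 of 26 of CDK6 and 1 of 3 of CDKN1A. Positions are in GRCh38, the pentamers are in capitals and the bases are written as DNA on the strand of the gene.
CCND1, chr11:69652681-69652710, plus strand: ATTTAtagttaaggctaaaaagtatATTTA
RB1, chr13:48480459-48480488, plus strand: taATTTAtatgtatatttttttaATTTAac
CDK6, chr7:92614390-92614419, minus strand: ctATTTAgtcttcagaatgctgaATTTAct
CDKN1A, chr6:36685897-36685926, plus strand: tatttgtgttttaATTTAaacacctcctca
AUUUA occurred in the 3′ UTR of 8 of the 10 genes, against 69.8% of genes with an annotated 3′ UTR. CDK4 and CCNE1 had none in 3′ UTRs of 798 and 531 bases. RB1 had 12 in 1819 bases, or 6.6 per kb, and 4.22% of genes had a higher density. E2F1 had 6 in 1049 bases (5.72 per kb) and CDKN1B had 7 in 1344 bases (5.21 per kb). CCND1, CCND2 and CDK6 had 2.19, 1.5 and 2.54 per kb, beside a median of 1.6 per kb over all genes with an annotated 3′ UTR. The 5 genes with a lower mean in shHuR (CCND1, CCND2, CDK6, E2F1 and CDKN1B) thus ran from 1.5 to 5.72 per kb. The 5 with a higher mean were CDK4 and CCNE1 at 0, CDKN1A at 1.95, CCND3 at 1.99 and RB1 at 6.6 per kb. AUUUA was present in genes that were lower in shHuR and in genes that were higher. Stretches of 7 U, counted with overlap, occurred in the 3′ UTR of 7 of the 10 genes, against 47.5% of genes. There were 52 in CCND2, 11 in CDK6, 8 each in CCND1 and CDK4, 5 in RB1, and 2 each in CDKN1B and CCNE1. CCND3, CDKN1A and E2F1 had 0. These counts are not scaled to length. A pentamer or a stretch of U is a match of letters and does not show that HuR binds there.

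The first group is the cyclins that start the step. CCND1 (chr11:69641087-69654474) encodes cyclin D1. In CPM, the 2 shControl libraries of each treatment had 60.2 and 60.7 (untreated), 56.8 and 59.3 (HNE) and 57.1 and 56.9 (H2O2). The shHuR libraries had 27.6 and 28.7 (untreated), 27.7 and 24.5 (HNE) and 29.8 and 26.7 (H2O2). All 6 shHuR libraries lay far below all 6 shControl libraries, and within a line the treatments were close together. The mean was 52.9% lower in shHuR, a log2 fold change of -1.09 with a standard error (SE) of 0.0495, and 1.44% of the genes tested had a larger absolute change.

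CCND2 (chr12:4273772-4305350), which encodes cyclin D2, had 256.4 to 278.5 CPM in shControl (median 264.9) and 180.9 to 198.3 CPM in shHuR (median 185.5). The lines were again separate, with a mean 29.5% lower in shHuR (log2 fold change -0.50, SE 0.0375). CCND3 (chr6:41934933-42050357), which encodes cyclin D3, went the other way. It had 20.5 to 25.3 CPM in shControl (median 22) and 26 to 30.5 CPM in shHuR (median 27.5). Its libraries did not overlap between lines, although the highest shControl value lay just under the lowest shHuR value, and the log2 fold change was 0.32 (SE 0.0593).

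Levels of different genes were compared by FPKM, which the authors scaled to gene length. Summed over the 3 D-type cyclins, FPKM was 67.2 ± 2.33 (SD, n = 6) in shControl and 50.8 ± 2.15 (SD, n = 6) in shHuR. CCND2 made up most of the sum in both lines, with 59.7% to 62.2% in shControl and 56.3% to 58% in shHuR. The share of CCND1 was 19.5% to 21.9% in shControl and 12% to 13.5% in shHuR. The share of CCND3 was 16.5% to 19.8% in shControl and 28.4% to 30.8% in shHuR. CCND1 thus stood above CCND3 in all 6 shControl libraries, by 1.01 to 1.31 times, and below it in all 6 shHuR libraries, at 0.398 to 0.476 times its level.

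**Figure D1:**
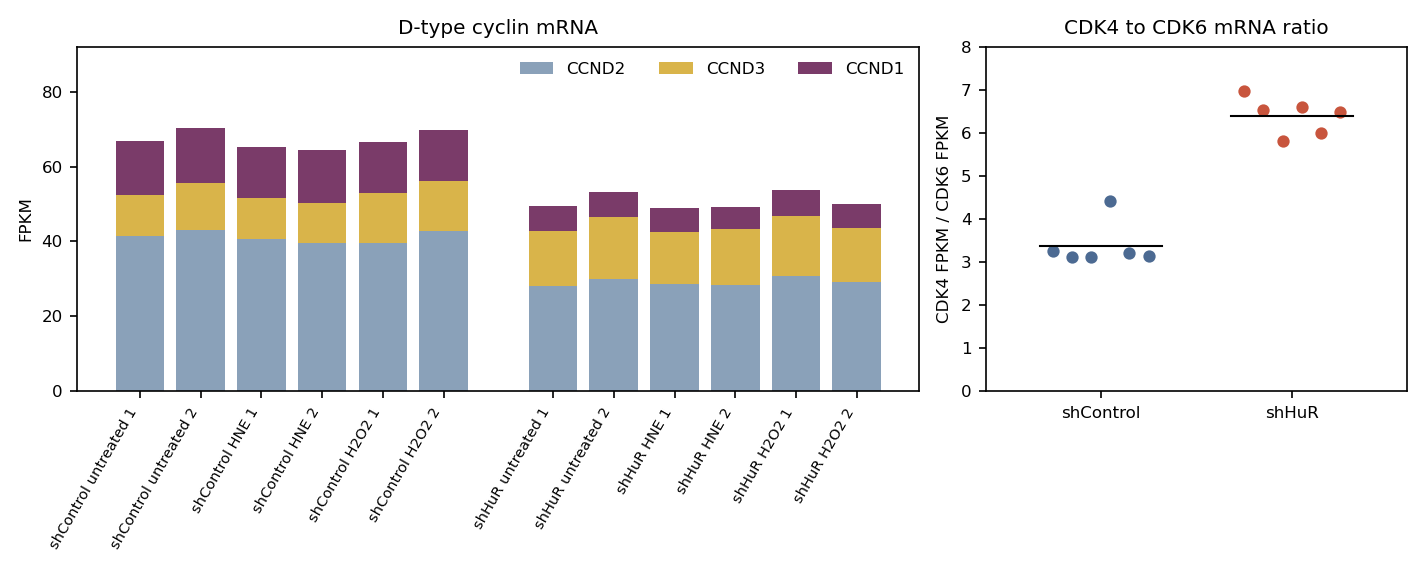
Composition of the D-type cyclins and the ratio of CDK4 to CDK6 in each of the 12 libraries, from FPKM (y axes), with stacked bars in the left panel and, in the right panel, 1 point per library and a line at the mean. CCND1 takes 19.5% to 21.9% of the D-cyclin FPKM in shControl and 12% to 13.5% in shHuR, and 1 shControl library with HNE has a CDK4 to CDK6 ratio of 4.41, above the other shControl libraries.

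The kinase partners also differed from each other. CDK6 (chr7:92604921-92836594) had CPM of 324.5 and 322.8 (untreated), 328.4 and 267.2 (HNE) and 318.4 and 330.7 (H2O2) in shControl. In shHuR it had CPM of 181.9 and 182.6 (untreated), 193.6 and 179.9 (HNE) and 197.5 and 182.3 (H2O2). The lines did not overlap, and replicate 2 of shControl with HNE was the lowest shControl library by a wide margin. The mean was 40.9% lower in shHuR (log2 fold change -0.76, SE 0.049), and the log2 fold change was -0.80 without that library. CDK4 (chr12:57747727-57756013) had 157.8 to 184.7 CPM in shControl (median 162.1) and 176.2 to 198.6 CPM in shHuR (median 186.3). The lines overlapped through the same shControl library, which was the highest of its line, and the log2 fold change was 0.17 (SE 0.0444), or 0.22 without it. By FPKM, CDK4 exceeded CDK6 by 3.11 to 4.41 times in shControl (median 3.18) and by 5.81 to 6.97 times in shHuR (median 6.51).

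RB1 (chr13:48303726-48599436), the pocket protein that holds E2F inactive, had CPM of 37 and 39.4 (untreated), 39.2 and 31.4 (HNE) and 37.3 and 45.1 (H2O2) in shControl. In shHuR it had CPM of 71.7 and 76.1 (untreated), 77.4 and 73.6 (HNE) and 84.4 and 75 (H2O2). The lowest shHuR library was well above the highest shControl library, and the extremes of shControl were replicate 2 with HNE and replicate 2 with H2O2. The mean was 2.00 times as high in shHuR (log2 fold change 1.00, SE 0.0621), and 0.95 without shControl replicate 2 with HNE. Of the genes tested, 1.94% had a larger absolute change. The ratio of RB1 to CCND1 in FPKM was 0.473 to 0.709 in shControl and 2.32 to 2.68 in shHuR. The order of the pair was thus opposite in the lines. The set was chosen on the opposite differences of this pair, so the shift of their ratio is a description only.

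The inhibitors did not move together. CDKN1A (chr6:36676460-36687339), which encodes p21, had 8.38 to 9.81 CPM in shControl (median 9.12) and 12.1 to 15.3 CPM in shHuR (median 14). The lines did not overlap, and the log2 fold change was 0.60 (SE 0.0695) at the lowest level of the set in shControl. CDKN1B (chr12:12715058-12722371), which encodes p27, had 53.7 to 63.6 CPM in shControl (median 59.9) and 47.9 to 57.6 CPM in shHuR (median 54). Its lines overlapped, with a mean 9.69% lower in shHuR (log2 fold change -0.15, SE 0.0409).

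CCNE1 and E2F1 act after the release of E2F. CCNE1 (chr19:29811898-29824308) had 32.9 to 38.3 CPM in shControl (median 36.1) and 34.2 to 40 CPM in shHuR (median 37.5). The lines lay on top of each other, with a log2 fold change of 0.06 (SE 0.0451). E2F1 (chr20:33675683-33686404), an E2F factor that activates transcription, had 52.8 to 61.3 CPM in shControl (median 56.4) and 43.5 to 54.5 CPM in shHuR (median 50.4). Its lines overlapped, with a mean 12.5% lower in shHuR (log2 fold change -0.19, SE 0.0492).

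**Figure D2:**
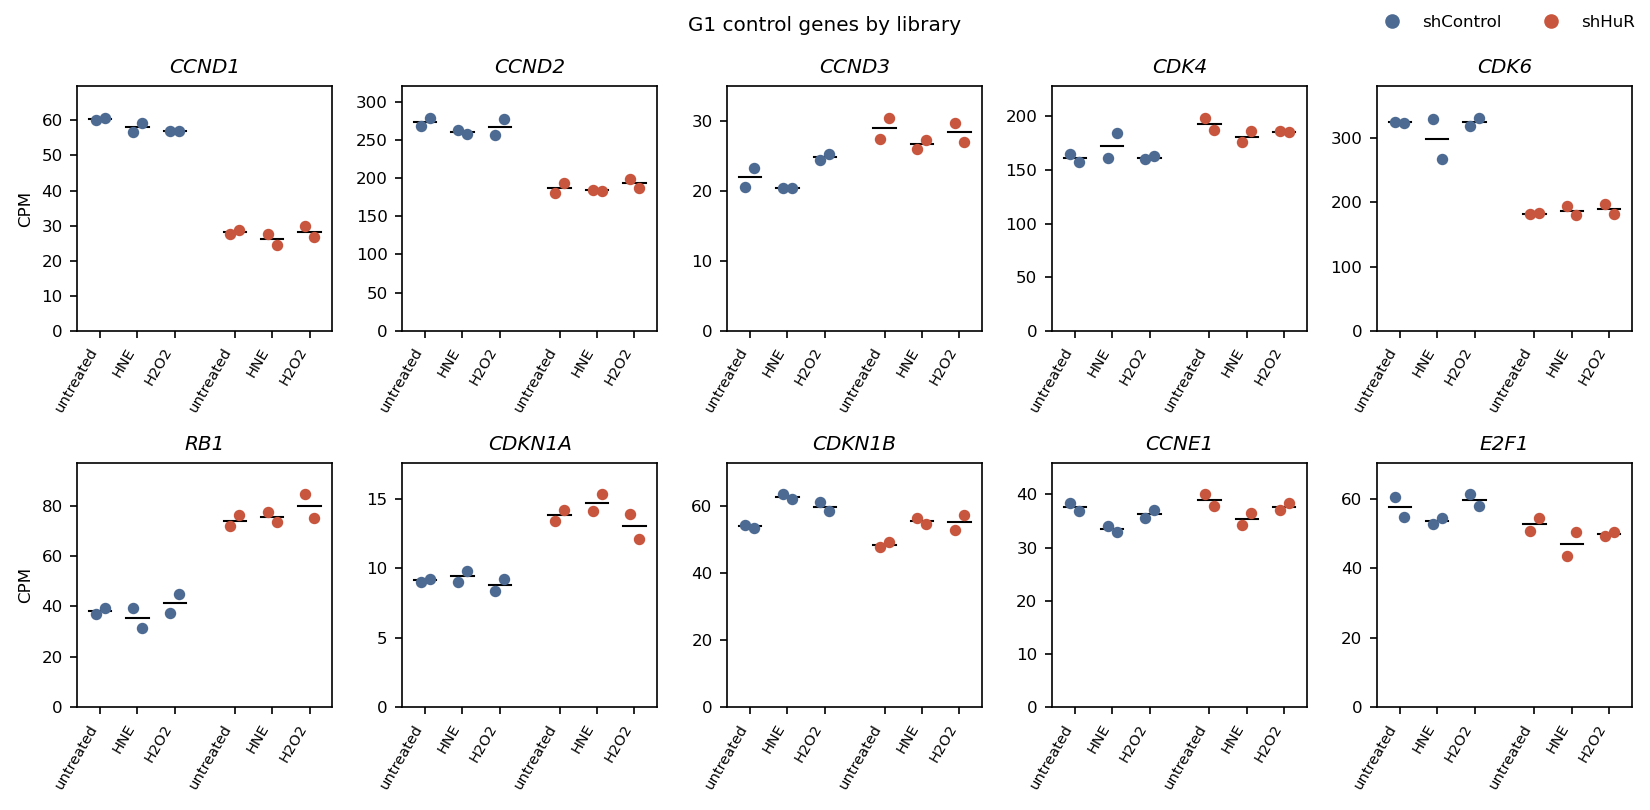
CPM (y axes, starting at 0) of the 10 genes in each of the 12 libraries, by line and treatment, 1 point per library. CCND1, CCND2 and CDK6 are lower in every shHuR library than in any shControl library, and RB1, CDKN1A and CCND3 are higher.

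In all, the lines did not overlap for 6 of the 10 genes, 3 higher and 3 lower in shHuR. Over all genes tested the lines did not overlap for 12.1%, with 5.25% higher and 6.84% lower. With edgeR's quasi-likelihood test, 9 of the 10 had an adjusted p under 0.05 (4 higher, 5 lower, and not CCNE1), against 29.9% of all genes tested (14.1% higher, 15.9% lower). As the set was chosen on this difference, neither count is evidence about it. The ratio of shHuR to shControl was similar in the 3 treatment conditions for CCND1 and RB1, and each of the 10 genes kept its direction. The ratio was 0.467 untreated, 0.45 with HNE and 0.496 with H2O2 for CCND1. For RB1 it was 1.93 untreated, 2.14 with HNE and 1.93 with H2O2. For CCND3 it was 1.32 untreated, 1.3 with HNE and 1.14 with H2O2.

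The order of the 10 genes by FPKM showed where the lines differed most. In shControl CDK4 was highest at 89.7, then CCND2 at 41.2, CDK6 at 26.8, CDKN1B at 26, E2F1 at 22.3 and CCNE1 at 20. CCND1 at 14, CCND3 at 12, RB1 at 8.17 and CDKN1A at 4.55 followed, each separate from its neighbours in all 6 libraries. Among CDK6, CDKN1B, E2F1 and CCNE1, every neighbouring pair in that order overlapped, and CCNE1 did not overlap CCND1. In shHuR CDK4 at 101.6 and CCND2 at 29.1 again led. CDKN1B at 23.6, CCNE1 at 21, E2F1 at 19.6, RB1 at 16.4, CDK6 at 15.9 and CCND3 at 15.1 formed a run in which every neighbouring pair overlapped. CDKN1A at 6.98 and CCND1 at 6.6 were lowest and overlapped.

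The treatment comparisons were not used to choose the genes and were tested. They asked whether 18 h of HNE or H2O2 changed the genes over both lines, each in 8 libraries with line as a covariate. The 2 comparisons share the untreated libraries. With HNE, 0 of the 10 genes passed an adjusted p of 0.05 in edgeR's quasi-likelihood test or in DESeq2, and 2 (CDKN1B and CCNE1) had an unadjusted p under 0.05. Over all 15780 genes tested, 39 passed (0.247%). The largest estimate was that of CDKN1B. It had 54.5, 53.7, 47.9 and 49.3 CPM in the 4 untreated libraries (shControl first) and 63.6, 62.1, 56.6 and 54.9 CPM in the 4 HNE libraries. Every HNE library was above every untreated library, by a small margin at the edge. The log2 fold change was 0.21 (SE 0.0539), with an adjusted p of 0.153 from edgeR and from 0.0596 to 0.449 over the alternative fits.

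CCNE1 had 38.3, 36.8, 40 and 37.9 CPM without treatment and 34, 32.9, 34.2 and 36.5 CPM with HNE. Each HNE library was below each untreated library, at the edge with 36.5 against 36.8 CPM. The share of all genes that separate by treatment, as CCNE1 and CDKN1B did, was not computed. The estimate for CCNE1 was -0.15 (SE 0.0612, adjusted p 0.34 from edgeR, from 0.254 to 0.651 over the alternatives). E2F1 overlapped between HNE and untreated libraries, with an estimate of -0.13 (SE 0.066, adjusted p 0.437 from edgeR). For the other 7 genes the estimates ran from -0.11 for CCND3 to 0.07 for CDKN1A, with -0.08 for CCND1, -0.04 for RB1, -0.04 for CDK6, -0.05 for CCND2 and 0.00 for CDK4.

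With H2O2, 0 of the 10 genes passed in edgeR or in DESeq2, and 1 (CDKN1B) had an unadjusted p under 0.05. Over all 15801 genes tested edgeR called 0 (0%), DESeq2 called 3, and 861 had an unadjusted p under 0.05 in edgeR. CDKN1B again had the largest estimate of the set. Its H2O2 libraries had 61.2 and 58.6 CPM in shControl and 53 and 57.6 CPM in shHuR, above the untreated libraries within each line and overlapping them across lines. Its log2 fold change was 0.17 (SE 0.0513, edgeR adjusted p 0.9, from 0.452 to 1.0 over the alternatives). RB1 had 0.11, CCND3 0.07 and CDKN1A -0.07, and all 10 lay between -0.07 and 0.17.

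**Figure D3:**
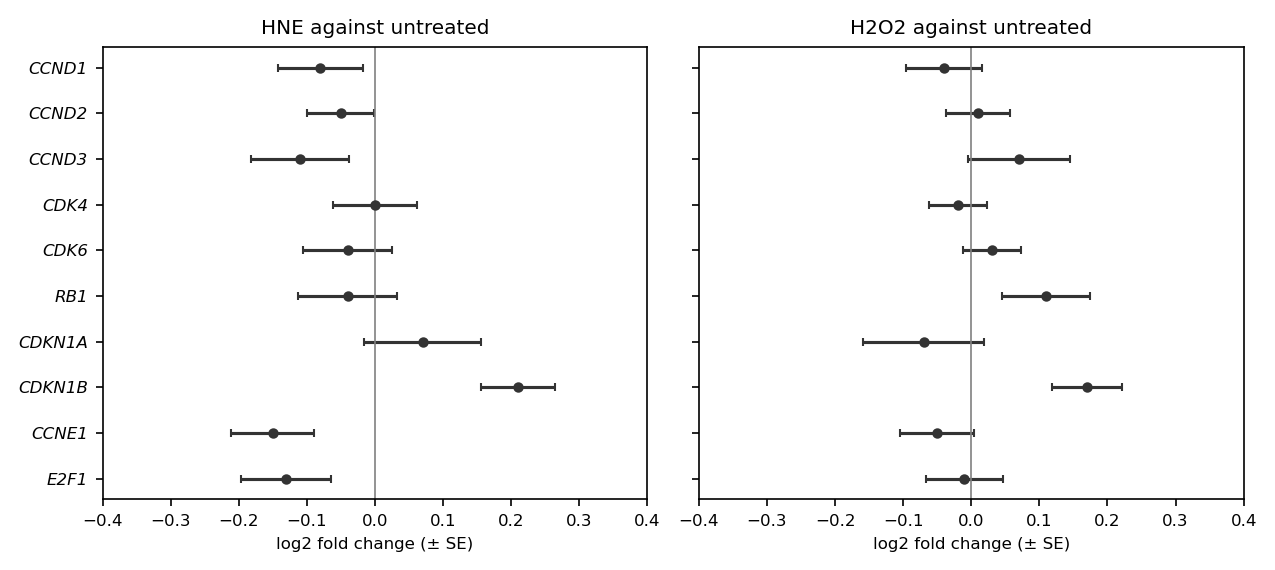
Log2 fold change (x axes, ± SE) of the 10 genes (y axis) with HNE and with H2O2 against untreated, over both lines, from 8 libraries each. CDKN1B has the highest estimate in both panels (0.21 and 0.17), and no gene passed an adjusted p of 0.05.

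Whether a treatment acted differently in the lines was tested as an interaction over all 12 libraries. For HNE the estimates of the 10 genes ran from -0.19 for CDK4 (SE 0.104, edgeR adjusted p 0.75) to 0.15 for CDK6 (SE 0.121, edgeR adjusted p 0.805). Both extremes involve shControl replicate 2 with HNE, and leaving out each library in turn moved them over -0.27 to -0.09 and over 0.01 to 0.32. For H2O2 they ran from -0.21 for CCND3 (SE 0.139, edgeR adjusted p 1) to 0.09 for CCND1. In both interactions 0 of the 10 genes passed in edgeR or DESeq2, and 0 had an unadjusted p under 0.05. Over all 16005 genes edgeR called 0 (0%) in each, with 1077 and 580 at an unadjusted p under 0.05, and DESeq2 called 5 for HNE and 3 for H2O2.

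The other genes of the pathway were outside the rule that chose the set, but were listed with earlier results of these data known. Their line differences were tested with edgeR. Of 20 other G1 regulators (further E2F, pocket, kinase and inhibitor genes), 4 were higher and 6 lower in shHuR, 50% in all beside 29.9% of all genes tested (14.1% higher, 15.9% lower). The median log2 fold change was -0.04 beside 0.00 over all genes tested. E2F5, an E2F factor linked to repression, had 26.4 to 31.5 CPM in shControl and 13.3 to 18.2 CPM in shHuR (log2 fold change -0.89, SE 0.0661, adjusted p 4.66e-08). E2F2, an activating E2F, fell from 46 to 58.3 CPM to 30.3 to 37.6 CPM (-0.58, adjusted p 8.97e-07). CDC25A, the phosphatase that activates CDK2, was at 215.2 to 227.6 CPM and 182.2 to 188.7 CPM (-0.24, adjusted p 4.23e-05). CDKN2B, the CDK4 and CDK6 inhibitor p15, rose from 12.6 to 17.2 CPM to 19.1 to 21.9 CPM (0.44, adjusted p 3.35e-04). In these 4 genes the lines did not overlap. CDK2 and CCNE2, the partners of the next step, had log2 fold changes of -0.03 and 0.03 and did not pass. CDKN1C had the largest estimate at a low level, 1.21 ± 0.256 CPM in shControl and 2.61 ± 0.763 CPM in shHuR (SD, n = 6). CDK2, CCNE2 and CDKN1C were singled out after their values were seen.

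Of 15 genes that act in the turnover of G1 proteins, 3 were higher and 2 lower (33.3%, median 0.00), a share near the 29.9% of all genes tested. CUL4B and CUL4A, scaffolds of ubiquitin ligases, fell by 0.35 and 0.28 on the log2 scale (adjusted p 1.65e-06 and 1.81e-04). CUL3, another such scaffold, rose by 0.20 (adjusted p 4.58e-04), and GSK3B, a kinase that phosphorylates cyclin D1 ahead of its degradation, rose by 0.17 (adjusted p 0.0104). The lines overlapped for GSK3B and were separate for the 3 cullins.

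Of 30 S-phase genes driven by E2F, 6 were higher and 6 lower (40%, beside 29.9% of all genes tested), with a median of -0.02. CHEK1, a checkpoint kinase, fell by 0.33 (adjusted p 3.85e-06) and CDT1, which loads the replicative helicase, by 0.41 (adjusted p 6.87e-05). TK1 and RRM2, both enzymes of nucleotide supply, rose by 0.28 and 0.22 (adjusted p 9.31e-05 and 3.11e-04). The median of the list stayed near 0 while single genes moved both ways.

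**Figure D4:**
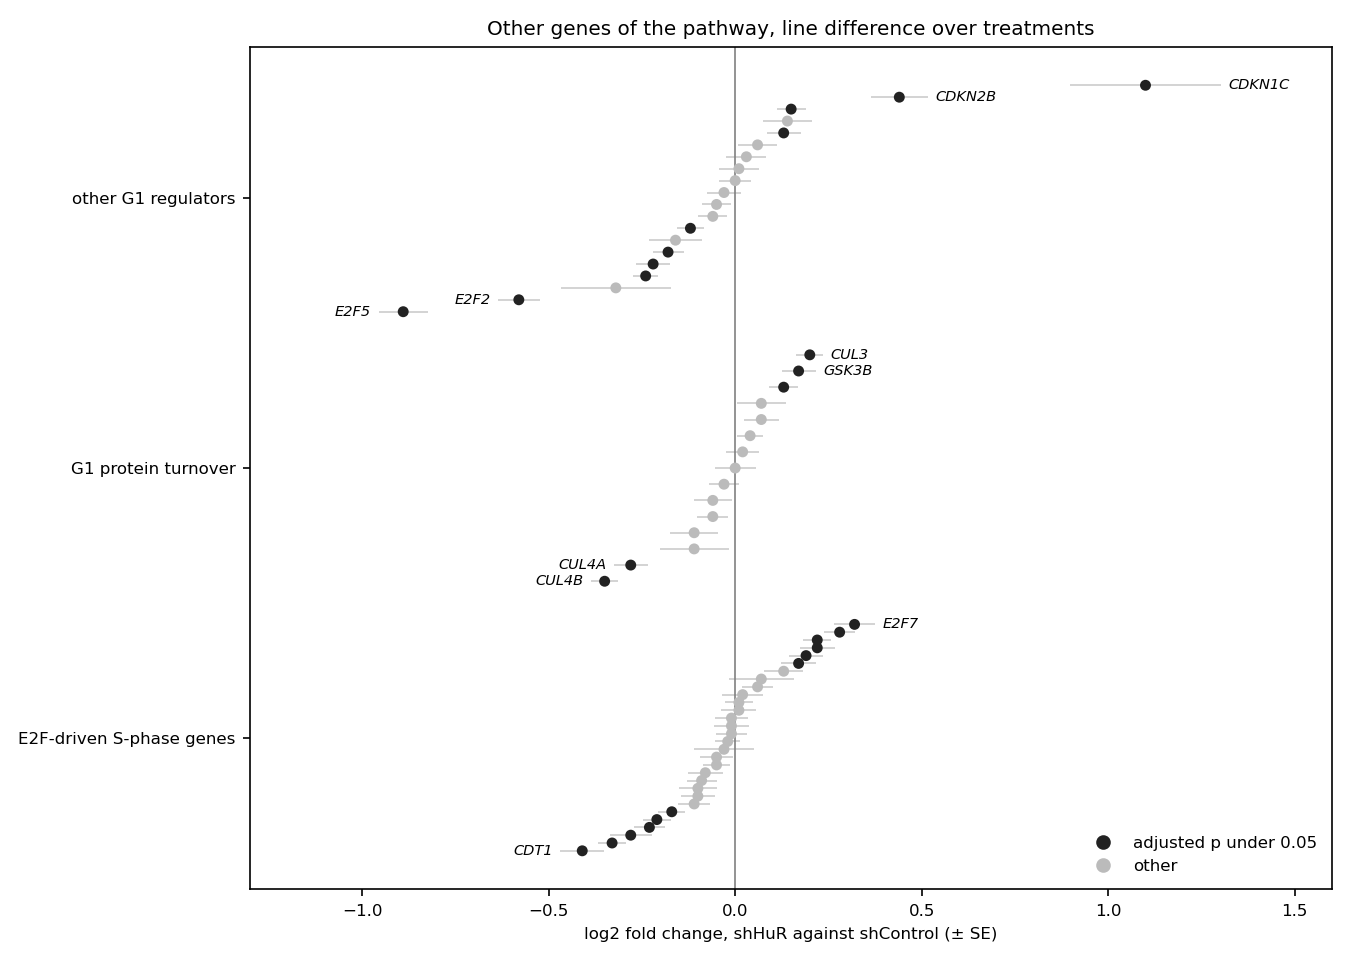
Line difference (x axis, log2 fold change ± SE, shHuR against shControl) of the genes in the 3 lists (y axis), 1 point per gene, with dark points for an adjusted p under 0.05 and names for the most extreme genes. Dark points lie on both sides of 0 in each list, 4 and 6, 3 and 2, and 6 and 6 genes higher and lower.

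In the treatments, 1 gene of the 3 lists passed. MCM5, a subunit of the replicative helicase, had 173.6 to 201.1 CPM in the 4 untreated libraries and 144.5 to 149.6 CPM in the 4 HNE libraries, a change of -0.33 on the log2 scale (SE 0.0537, adjusted p 0.027 from edgeR). Its adjusted p was 0.0912 to 0.169 with limma on FPKM. The call was also lost in 6 of 8 fits with 1 library left out (0.073 to 0.163), those without either untreated library of either line or without either shHuR library with HNE. The log2 fold change was -0.36 to -0.30 with 1 library left out. Of the 30 S-phase genes, 9 had an unadjusted p under 0.05 with HNE, beside 1942 of all 15780 genes tested, and the median was -0.07 beside 0.00. H2O2 and the interactions changed 0 of the list genes in edgeR and in DESeq2.

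E2F1 is itself known as a gene that E2F activates, so promoters were searched on both strands for TTTCCCGC, TTTCGCGC, TTTGCCGC and TTTGGCGC, letters typical of E2F sites. The last 60 bases before the E2F1 start (RefSeq, GRCh38.p14, chr20:33686386-33686445, minus strand) are shown with both of its matches in capitals.
E2F1 promoter: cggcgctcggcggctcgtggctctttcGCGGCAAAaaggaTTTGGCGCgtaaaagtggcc
The matches start 33 and 20 bases before the start, the first on the opposite strand as TTTGCCGC. Over 300-base promoters, 250 bases before to 50 after the start, a match occurred in 3.99% of 27305 genes, in 14 of the 26 S-phase genes with an entry (53.8%) and in 1 of the 8 members with an entry, E2F1. CCND1 and CCND2 had no entry. A match describes letters and is no evidence of binding.

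Genes that varied over the 12 libraries most like CCND1 were HOXA10, CCND2 and BTG3 (Pearson's r of log2(CPM + 1) 0.987 each), ZBTB10 (0.986) and ZADH2 (0.984), among 11269 genes compared. Those most like RB1 were OCRL (0.986), TMED5 and TOR1AIP2 (0.984 each), MBNL1 (0.982) and BTRC (0.981). The 12 libraries share the split into lines, and each of these genes differs between the lines, so the values include that gap. Within the set, CCND1 had r of 0.973 with CDK6, -0.961 with RB1 and -0.957 with CDKN1A. The gap between lines, on which the set was chosen, enters these values too.

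Library totals ran from 24855946 to 29907258 counts, and small RNA genes took 0.627% to 1.29% of counts, most in shControl replicate 2 with HNE. All 6 markers of HEK293 cells (VIM, NEFL, KRT18, INA, KRT8 and NEFM) exceeded 1 CPM on average, with sums of 618.1 to 683.4 CPM in shControl and 498.6 to 559.3 CPM in shHuR. Endothelial and hepatocyte markers summed to at most 0.286 and 0.373 CPM, PTPRC and CD3E of leukocytes averaged 0.0348 and 0.00304 CPM, and none of the 12 markers of other cell types was at 0 in all libraries. By annotated span, introns included, ORAOV1 (mean 21.4 CPM) reaches exons of CCND1 and TSPAN31 (mean 20.5 CPM) those of CDK4. CCND2-AS1 reaches exons of CCND2, and each of these genes lies on the opposite strand. Another annotated protein-coding gene reaches exons of CCND2 on its own strand, which the use of strand would not separate. Whether exons of these genes overlap exons of the members was not computed. The libraries were strand-specific, but whether counting used strand is not given in the sources used here. The levels of CCND1, CCND2 and CDK4 are thus uncertain where other genes overlap them.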

How the data were processed

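RNA depleted of ribosomal RNA was sequenced as strand-specific, single-end 75 bp libraries, per the labels' protocols. The authors deposited estimated counts per gene symbol, and FPKM values scaled to gene length and library size. Per the submitters' processing notes the tools were cutadapt 1.8, Bowtie2 2.2, TopHat2 2.1, Cufflinks 2.2, Cuffnorm and Cuffdiff, with GRCh37 (hg19); which program made which table, the annotation and the use of strand are not given in the sources used here. Fractional values made up 2.25% of the deposited counts, in 701 genes and in 0 of the 10 members, and were rounded before testing.

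Genes were filtered with filterByExpr (minimum count 10), scaled by TMM (factors 0.965 to 1.03) and tested with edgeR 4.0.16 (R 4.3.3) by quasi-likelihood F-test with Benjamini-Hochberg adjustment over all genes tested and a threshold of 0.05. The line effect had treatment as covariate, the treatment effects had line, and interactions used 6 group means. CPM was computed from the scaled library sizes. The SE is the size of the log2 fold change divided by the square root of F. The fits were tested on simulated data. P-values of the interactions measure the spread between the 2 cultures per group. In the line and treatment effects, the error term also takes in any difference in treatment response between the lines.

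The members, lists and tests were chosen with earlier results of these data known. Named genes were the 10 members, ELAVL1, the 4 genes per list with the smallest adjusted p under 0.05 in the line effect, every list gene under 0.05 elsewhere, and the 5 genes of at least 5 CPM most like CCND1 and RB1; CDK2, CCNE2 and CDKN1C were named outside this rule. Alternatives were DESeq2 1.42.0, median-ratio factors, library size alone, no filter, a replicate block, limma 3.58.1 with a trend on log2(FPKM + 1) and log2(FPKM + 0.1) for genes averaging at least 1 FPKM, log2(FPKM + 1) also unfiltered, and leaving out each library. Fold changes on the log2(FPKM + pseudocount) scale understate those of low genes. Same-numbered replicates correlated with r of -0.23 to 0.28 over 15 pairs of groups, above 0.1 in 4, so numbers were not taken to pair samples. Positions and 3′ UTRs are those of GENCODE 29 on GRCh38, not the authors' build, and 84% of tested genes had a 3′ UTR matched by symbol.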

Additional observations from a re-analysis of the deposited data

Results flagged for a closer look

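In shControl replicate 2 with HNE, CDK4 had 184.7 CPM, where the nearest of the other 5 shControl libraries had 165.3 and the farthest 157.8. In the same library CDK6 had 267.2 CPM, where the nearest had 318.4 and the farthest 330.7. Each stood apart from the rest of its line by more than Dixon's 95% critical value for 6 samples (the gap was 0.72 and 0.807 of the range). Of 20 such groups 2 were flagged, where chance flags about 1 in 20, and both flags fall on 1 library. That library also had the lowest RB1 of its line (31.4 CPM) and the highest share of small RNA counts (1.29%), whose part in these values was not tested.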

How the results depend on the processing

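The count of members called between lines was 9 under every alternative run, beside 29.9% of all genes tested in the main fit. As the set was chosen on that difference, the count is no evidence about it. The 0 called in each treatment effect and interaction also held under every alternative, and each member kept the sign of its line difference. CCND1 ranged from -1.12 to -1.06 and RB1 from 0.95 to 1.04 with 1 library left out, and CCND1 was -0.98 with limma on log2(FPKM + 1). Counts over all genes moved more. For HNE, 39 genes became 182 with DESeq2, 334 without a filter, 14 with the replicate block, and 2, 4 and 1 with limma on log2(FPKM + 1), on log2(FPKM + 0.1) and unfiltered; they were 3 to 168 with 1 library left out, 168 without shControl replicate 2 with HNE. List genes called with HNE, 1 as reported, were 2 with DESeq2, 3 without a filter, 0 with the replicate block and with each limma setting, and 0 to 2 with 1 library left out. For H2O2, 0 genes became 3 with DESeq2, 117 without a filter, 2, 2 and 1 with the limma settings, and 0 to 1 with 1 library left out. For the HNE interaction, 0 became 5, 103 and 3, 1 and 2, and 0 to 87 with 1 library left out (87 without shControl replicate 1 with HNE). For the H2O2 interaction, 0 became 3 with DESeq2, 36 without a filter, 3 and 2 with limma on log2(FPKM + 1) with and without a filter, and 0 to 3 with 1 library left out. The cause of these moves was not tested. The sign of small HNE estimates turned: CDK4 was -0.01 with library size alone and -0.06 to 0.04 with 1 library left out, CDK6 -0.09 to 0.03 and RB1 -0.08 to 0.03. The replicate block ended the HNE call of MCM5 (adjusted p 0.0509). Depth limits CDKN1A, at a median of 9.12 CPM in shControl, most among the members.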
